A study of Mus musculus with 21 samples.

Results

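SKOM cells grown without vitamin C were compared with mouse embryonic fibroblasts (MEFs), the cells they were made from. Retroviruses had brought Myc, Klf4, Sox2 and Oct4 (gene Pou5f1) into the SKOM cells, a mixture known to turn some fibroblasts into induced pluripotent stem cells. The comparison used 10 of the 21 RNA sequencing libraries of the series, 5 of SKOM cells in medium without vitamin C and 5 of MEFs, chosen because the same construct had been given to both. The constructs were Flag+shLuc (the control), Dnmt1, shDnmt1, shp53+shDnmt1 and Tet1CD, and each SKOM library was set against the MEF library with the same construct. Dnmt1 encodes the methyltransferase that copies DNA methylation after replication, shDnmt1 and shp53 are hairpins against Dnmt1 and against Trp53, the p53 gene, and the Tet1CD construct comes from Tet1, whose enzyme oxidises methylated cytosine. Per the labels' protocols, both settings came from fibroblasts of 13.5-day ICR embryos at passage 2 and both carried retroviral constructs after 48 h of infection. SKOM cells were harvested at day 5 in medium with 15% serum, leukaemia inhibitory factor (LIF), β-mercaptoethanol and pyruvate, and MEFs were kept in medium with 10% serum. The factors, the medium and the time of harvest therefore changed together and cannot be told apart. Cultures of this kind are known to be mixed, with cells that did not take up all the factors. Each construct was sequenced once in each setting, so a pair of libraries has no replicate.

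Early reprogramming of fibroblasts is known for a mesenchymal-to-epithelial transition, in which fibroblasts lose mesenchymal transcription factors and matrix and gain epithelial junctions. Klf4 is known to act on epithelial genes, TGF-beta signalling is known to oppose the transition, and Myc is known to drive ribosome production and cell division. Resident pluripotency genes are mostly switched on later than these changes.

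The deposited values were whole numbers that the authors had normalized within each table, so sequencing depth is unknown and levels are compared here between libraries and not between genes. The median value was 180 in each SKOM library and 208 in each MEF library. At the same rank, 35.8% of the values of the MEF library labelled Tet1CD differed from those of the MEF control, against 2.39% to 6.71% for the other MEF libraries and 1.38% to 8.92% for SKOM libraries against their control. The SKOM and MEF tables had been normalized separately, and no test across them was run. For each gene listed in both tables the log2 ratio of SKOM over MEF was taken in each pair as log2(value + 5), which understates the change of low genes, and centred on the median gene of the pair. The median gene lay at -0.27 to -0.30 before centring, so each ratio below is relative to that gene. A ratio is given as the median of the 5 pairs, followed by the lowest and highest pair, a range over constructs and not over replicates. A gene is called higher in SKOM cells where the ratio was above 0 in all 5 pairs with a median of at least 1 (2-fold), and lower where it was below 0 in all 5 with a median of at most -1. Values of 5 libraries are given in the order Flag+shLuc, Dnmt1, shDnmt1, shp53+shDnmt1 and Tet1CD throughout. About 10 genes of a library shared its highest value, 19681 in SKOM and 38803 in MEF libraries, which limits the ratios of the 23 shared genes that reached it. Where a gene is said to lose its call, it no longer met this rule under the setting named. List members described by their role beyond those with the largest ratios were chosen after their values were seen.

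Labels were checked on the genes aimed at by the constructs. Dnmt1 (ENSMUSG00000004099, mm10 chromosome 9, 20907206 to 20959888) had 984, 1001, 527, 726 and 967 in the SKOM libraries, against 957, 975, 208, 410 and 458 in the MEF libraries. The hairpin libraries were the lowest SKOM libraries, and the libraries labelled Dnmt1 stood close to the controls in both settings. The ratio of Dnmt1 was 1.11 (0.30 to 1.59) and met the rule for higher, but the call was lost without centring, without pairs and without either the shDnmt1, the shp53+shDnmt1 or the Tet1CD pair. Trp53 (ENSMUSG00000059552, chromosome 11, 69580359 to 69591873) had 873, 848, 810, 453 and 742 in the SKOM libraries, against 1008, 1008, 966, 186 and 888 in the MEF libraries. The libraries with the p53 hairpin were lowest in each setting, and lower in MEFs, so that the ratio was 1.56 in that pair and 0.02 to 0.07 in the other 4. Tet1 (ENSMUSG00000047146, chromosome 10, 62804577 to 62899118) had 16, 13, 11, 19 and 2632 in the SKOM libraries and is not listed in the MEF table, so the label of the MEF library Tet1CD could not be checked on it. Because the Dnmt1 and Tet1CD labels could not be borne out in both settings, counts were also made without those 2 pairs, a choice made after the values were seen.

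Of 10242 genes in both tables, 617 were higher in SKOM cells (6.02%) and 763 were lower (7.45%). Without the Dnmt1 and Tet1CD pairs the counts were 636 and 787, and in the control pair alone 630 and 769 genes were past 2-fold. Without centring the split shifted to 376 higher and 1258 lower. The shares of 6.02% higher and 7.45% lower are the background for the list counts below. The 5 pairs resembled one another across genes, with Pearson correlations of 0.79 to 0.92 that are given as a description, since the genes of a library are not independent. Before centring, the deposited values of the 5 SKOM libraries lay wholly above those of the 5 MEF libraries in 9.97% of shared genes and wholly below them in 39.2%, which is the background for the statements on overlap. A further 481 genes were listed only in the SKOM table and 910 only in the MEF table. A gene missing from a table has no value there, since each gene of a table reaches 32 in 2 or more of the 7 libraries of its table. Libraries not used here count toward this, so a listed gene can lie below 32 in all 5 libraries used.

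**Figure D1:**
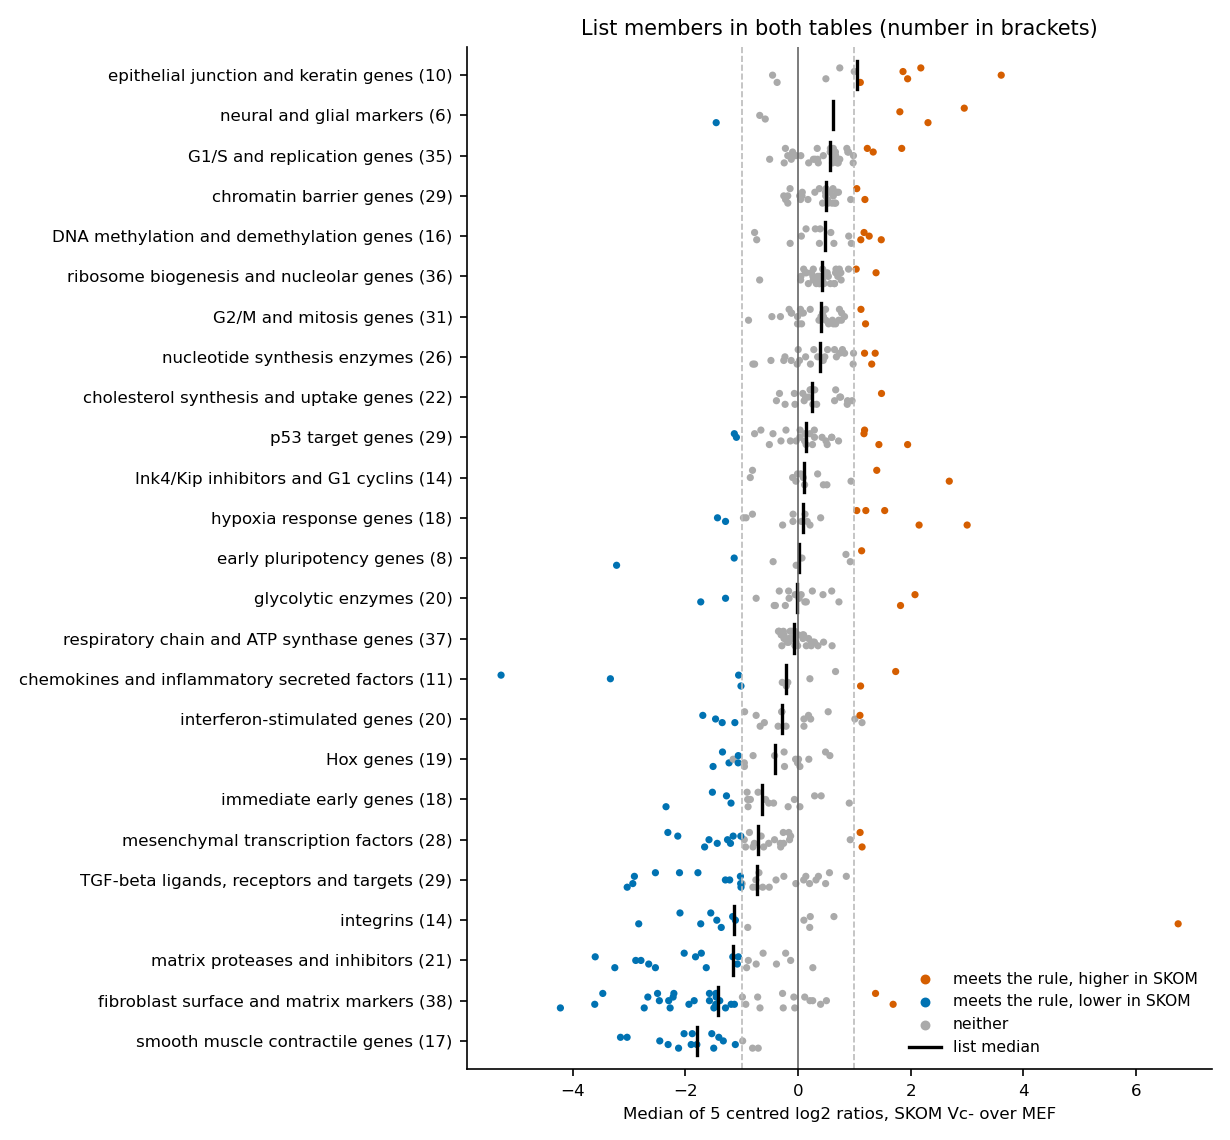
Median centred log2 ratio of SKOM over MEF cells (x axis) for the members of each gene list found in both tables, with the number of members in brackets, a black bar at the list median and dashed lines at the 2-fold limit. Epithelial genes lie mostly right of 0 with a median of 1.05, and the smooth muscle, fibroblast, protease and integrin lists lie mostly left of 0, with medians of -1.80, -1.42, -1.16 and -1.14.

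The main lists gave like counts without the Dnmt1 and Tet1CD pairs. Of the epithelial genes 5 were then higher and 0 lower, of the fibroblast genes 2 and 24, of the smooth muscle genes 0 and 14, of the TGF-beta list 0 and 11, and of the mesenchymal transcription factors 1 and 10. For some lists, changes of counts or medians with a pair or with the centre are stated where they are described. Without centring the TGF-beta list had 15 lower members and a median of -1.01, and the matrix proteases and inhibitors had 16 lower. The nucleotide synthesis enzymes then had 2 higher and 2 lower members, with a median of 0.13. With a pseudocount of 20 the TGF-beta list had 8 lower members and the matrix proteases and inhibitors 12. When pairs were ignored these counts were 9 and 12, and without the shDnmt1 pair the TGF-beta list had 9. The integrin median ran from -1.45 in the Dnmt1 pair to -0.40 in the shp53+shDnmt1 pair.

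The 4 factors were read next. Klf4 (ENSMUSG00000003032, chromosome 4, 55530712 to 55532453) had 4210, 4620, 5732, 7021 and 5059 in the SKOM libraries, against 526, 459, 520, 603 and 568 in the MEF libraries. Every SKOM library lay far above every MEF library, and the ratio was 3.58 (3.26 to 3.83). Myc (chromosome 15, 61985391 to 61990350) was 4.66 (4.10 to 5.12), with 4 of the 5 SKOM libraries at the highest value of the table, so the size of its difference is limited by that value. Pou5f1 (chromosome 17, 35506018 to 35510772) and Sox2 (chromosome 3, 34650005 to 34652461) are listed in the SKOM table only, with values of 3122, 3885, 3688, 4210 and 3884 for Pou5f1 and 2540, 2697, 2697, 3122 and 2627 for Sox2. The values do not separate retroviral from resident transcripts of the 4 genes.

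Of 35 genes of early or later pluripotency 8 were in both tables, 4 in the SKOM table only and 1 in the MEF table only. L1td1, which encodes an RNA-binding protein of pluripotent cells, had values of 429, 468, 564, 759 and 695 in SKOM libraries and no listing in MEFs. Sall1 (75, 81, 87, 135 and 91), the alkaline phosphatase Alpl (84, 125, 103, 148 and 107) and the uridine phosphorylase Upp1 (86, 108, 117, 72 and 101) were also listed for SKOM cells only, and Klf2 (99, 68, 90, 233 and 96) for MEFs only. Of the 8 shared members only the cell cycle transcription factor Mybl2 was higher (1.13, 0.51 to 2.26), with overlapping values of 294 to 460 in SKOM and 71 to 396 in MEF libraries, and its call was lost without centring and without pairs. Osteopontin (Spp1, -3.22, -3.63 to -1.83) and Klf5 (-1.13, -1.35 to -1.02) were lower, and the median of the 8 was 0.02, with -0.25 without centring and -0.03 without the Dnmt1 and Tet1CD pairs. Of 18 germ cell genes 2 were in both tables. Sycp1 had a ratio of -0.03 (-0.41 to 0.37) and Tex15 of 0.29 (-0.33 to 0.61), and neither met the rule, and Dazl (1, 22, 1, 39 and 42) is listed for MEFs only.

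Epithelial genes were the list with the highest median apart from the 4 factors. Of 40 junction, keratin and other epithelial genes 10 were in both tables, and 5 of these were higher and 0 lower, with a median ratio of 1.05. A further 8 were listed in the SKOM table only and 2 in the MEF table only. Desmoplakin (Dsp, ENSMUSG00000054889, chromosome 13, 38151328 to 38198577), which ties desmosomes to keratin filaments, had values of 1076, 1222, 1690, 1379 and 1862 in the SKOM libraries, against 110, 116, 160, 32 and 366 in the MEF libraries. The lowest SKOM library was above the highest MEF library, and the ratio was 3.61 (2.61 to 5.52). The desmosomal p53 effector Perp (1.95, 0.84 to 3.64), the membrane protease St14 (1.86, 1.69 to 3.35) and the surface sialoglycoprotein Cd24a (1.11, 0.85 to 1.56) were higher too, the last of them not without centring. Perp values overlapped, because the SKOM library with the p53 hairpin had 876 and the MEF library labelled Tet1CD had 901. The ratio of the junction protein F11r was 1.00 (0.51 to 1.5), short of the limit before rounding, and plakoglobin (Jup) was at 0.74 (0.63 to 1.01). Plakophilin 2 (Pkp2, -0.45, -0.70 to -0.19) and keratin 19 (Krt19, -0.37, -0.84 to -0.13) lay below 0 in every pair without reaching 2-fold. In bulk libraries like these, more cells of a type and more RNA per cell cannot be told apart.

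The defining epithelial markers had low values in SKOM cells. E-cadherin (Cdh1, ENSMUSG00000000303, chromosome 8, 106603351 to 106670246) had 98, 135, 118, 150 and 79, and the adhesion molecule Epcam (ENSMUSG00000045394, chromosome 17, 87635979 to 87651106) had 34, 44, 45, 51 and 33. Both are listed for SKOM cells and not for MEFs. Plakophilin 1 (Pkp1, 337, 327, 308, 300 and 258), the protease inhibitor Spint2 (107, 105, 148, 133 and 129), the transcription factor Ehf (91, 123, 115, 99 and 118), the splicing regulator Esrp2 (62, 70, 50, 88 and 62), keratin 8 (Krt8, 59, 57, 84, 139 and 81) and claudin 3 (Cldn3, 27, 29, 36, 61 and 28) shared this pattern. Keratins 7 and 18 had the reverse pattern and are listed for MEFs only. Krt7 had 48, 32, 49, 80 and 246 and Krt18 had 21, 15, 27, 27 and 134, with the highest value of both in the library labelled Tet1CD. The summed value of the epithelial list was 9018 to 11342 in SKOM libraries, where 18 of 40 markers are listed, and 3474 to 5143 in MEF libraries, where 12 are. This sum and those given below are of deposited values, without centring, from tables normalized separately.

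Snail and Zeb repressors of epithelial genes are known to bind the E-box CACCTG, read on the other strand as CAGGTG, in the promoters of genes such as Cdh1. Promoter windows of 300 bases, 250 before to 50 after the start, were taken from RefSeq (GRCm38.p6). Windows were found for 9 of the 20 epithelial members listed in either table, and 8 of these held the hexamer on either strand (88.9%), against 20% of 27025 promoters of the same length. The 8 were Cldn3, Dsp, Epcam, F11r, Krt7, Krt8, Krt18 and Spint2. Of these only Dsp met the rule for higher, and Krt7 and Krt18 are listed for MEFs only. No window was found for Cdh1. The windows of Epcam (chr17:87635729-87636028, plus strand) and Dsp (chr13:38151044-38151343, plus strand) are shown because one gene was listed for SKOM cells only and the other had the largest ratio of the list. Capitals mark the hexamer, which is not found inside the other motifs searched here. The Epcam window also holds CACGTG, a motif searched below for another list, left in lower case.
Epcam: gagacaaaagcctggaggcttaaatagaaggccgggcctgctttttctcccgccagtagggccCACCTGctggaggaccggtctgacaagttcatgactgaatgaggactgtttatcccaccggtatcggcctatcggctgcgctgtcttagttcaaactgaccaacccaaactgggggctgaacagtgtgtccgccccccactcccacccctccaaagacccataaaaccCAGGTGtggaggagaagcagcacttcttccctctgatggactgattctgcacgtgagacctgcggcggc
Dsp: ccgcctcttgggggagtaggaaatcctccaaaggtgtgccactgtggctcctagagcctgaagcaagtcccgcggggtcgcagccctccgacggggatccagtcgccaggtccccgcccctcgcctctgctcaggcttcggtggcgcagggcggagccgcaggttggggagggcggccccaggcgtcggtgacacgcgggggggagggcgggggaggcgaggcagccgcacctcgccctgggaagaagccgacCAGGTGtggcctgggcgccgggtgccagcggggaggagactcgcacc
A match of letters describes the window and says nothing about binding in these cells.

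**Figure D2:**
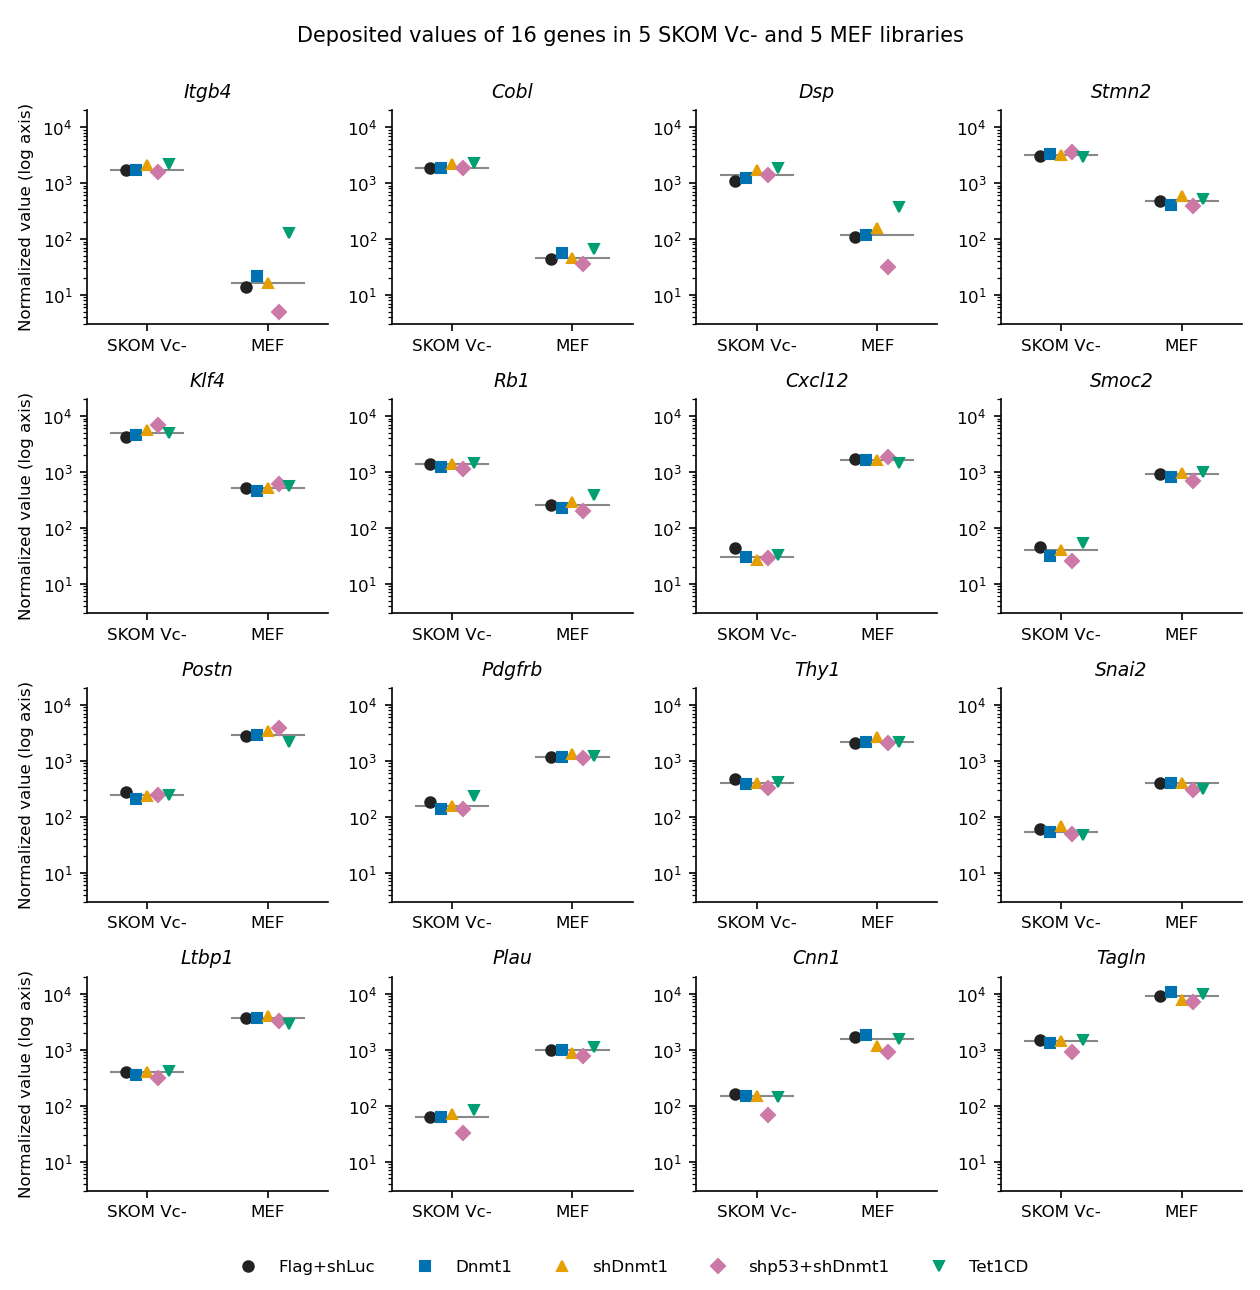
Deposited normalized values (y axis, log scale) of 16 genes in the 5 SKOM libraries (left of each panel) and the 5 MEF libraries (right), with a symbol per construct and a grey line at the median of each group. For Itgb4 the SKOM libraries lie between 1554 and 2233 and the MEF libraries between 5 and 127, while for Cxcl12 the SKOM libraries lie between 27 and 44 and the MEF libraries between 1450 and 1814.

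The gene with the largest ratio was Itgb4 (ENSMUSG00000020758, chromosome 11, 115974709 to 116008412), the integrin beta4 subunit that anchors epithelial cells in hemidesmosomes. It had values of 1687, 1687, 2136, 1554 and 2233 in the SKOM libraries, against 14, 22, 16, 5 and 127 in the MEF libraries. The SKOM libraries were close together and the MEF libraries spread from near 0 to the one labelled Tet1CD, and the ratio was 6.75 (4.37 to 7.58), a 108-fold median difference on the value + 5 scale. Cobl (ENSMUSG00000020173, chromosome 11, 12236608 to 12464804), an actin nucleator, had 1894, 1894, 2197, 1894 and 2241 in the SKOM libraries, against 43, 55, 45, 35 and 67 in the MEF libraries. Its ratio was 5.58 (5.25 to 5.87), a 47.8-fold difference, and the groups were far apart. Prelp (chromosome 1, 133910304 to 133921414), a leucine-rich matrix protein, had 3689, 2542, 3689, 2234 and 4621 in the SKOM libraries, against 169, 194, 218, 63 and 234 in the MEF libraries, and a ratio of 4.56 (3.94 to 5.34). No SKOM library of the 3 genes overlapped with a MEF library.

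Secreted and membrane proteins were among the other genes of the 15 with the largest ratios that did not reach a highest value. Il1rn (chromosome 2, 24336853 to 24351494), the interleukin 1 receptor antagonist, had 1190, 1114, 1029, 660 and 1664 in the SKOM libraries, against 72, 84, 63, 45 and 25 in the MEF libraries. Its ratio was 4.20 (3.92 to 6.08), with the highest value in the Tet1CD pair. Prrg3 (4.46, 4.14 to 4.97), a transmembrane Gla protein, the teneurin Tenm4 (4.11, 3.11 to 4.93), the sodium leak channel Nalcn (4.10, 2.27 to 5.92) and mesothelin (Msln, 3.96, 3.06 to 4.22) followed. Nalcn was listed at 0 in 2 MEF libraries and at up to 41 in the other 3, so its spread is wide. The nuclear envelope protein nesprin 2 (Syne2, 3.93, 3.37 to 4.66), the hydroxysteroid dehydrogenase Akr1c18 (3.93, 3.13 to 4.19), Mfsd6 (3.90, 3.25 to 4.38) and the scaffold protein Iqgap2 (3.87, 3.46 to 4.58) each had SKOM values well above MEF values. Abca1 (3.79, 2.65 to 4.93), which exports cholesterol, had 1754, 1931, 2300, 2546 and 1995 in the SKOM libraries, against 120, 163, 402, 98 and 383 in the MEF libraries. The glutathione transferase Gsta4 (3.69, 2.73 to 3.87) and Rassf9 (3.63, 1.05 to 4.33) completed the 15, and Rassf9 was listed at 0 in 3 MEF libraries.

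Fibroblast genes were mostly lower. Of 40 fibroblast surface and matrix genes 38 were in both tables, of which 23 were lower in SKOM cells and 2 higher, and the median ratio was -1.42. Periostin (Postn, ENSMUSG00000027750, chromosome 3, 54361109 to 54391034), a matrix protein of fibroblasts, had 276, 211, 240, 245 and 241 in the SKOM libraries, against 2800, 2866, 3466, 3848 and 2203 in the MEF libraries. Every SKOM library was far below every MEF library, and the ratio was -3.47 (-3.65 to -2.88). The platelet-derived growth factor receptor Pdgfrb had 184, 136, 153, 139 and 234 in the SKOM libraries, against 1179, 1171, 1316, 1119 and 1236 in the MEF libraries, and the surface marker Thy1 (chromosome 9, 44043384 to 44048579) had 467, 392, 394, 330 and 419 in the SKOM libraries, against 2109, 2195, 2656, 2079 and 2195 in the MEF libraries. Their ratios were -2.67 (-2.79 to -2.09) and -2.20 (-2.46 to -1.89), with no overlap of the groups. The related receptor Pdgfra is listed for MEFs only, with 324, 275, 288, 362 and 105.

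Within the same list the matrix genes differed from one another. The proteoglycan Bgn (-4.22, -4.46 to -3.89), fibulin 2 (Fbln2, -3.61, -3.85 to -2.11) and the collagen gene Col1a2 (-2.73, -2.80 to -1.93) had the highest MEF value in 4 of 5 libraries, so their differences are limited by it. Collagens Col5a1 (-2.30, -2.42 to -1.46), Col3a1 (-1.94, -1.99 to -1.15) and Col1a1 (-1.46, -1.70 to -1.11), the crosslinking enzyme Lox (-1.84, -2.12 to -1.42) and N-cadherin (Cdh2, -1.45, -1.71 to -0.74) were lower. Fibrillin 1 (Fbn1, -0.07, -0.19 to 0.16), collagen Col6a2 (-0.06, -0.15 to 0.93) and decorin (Dcn, 0.50, 0.08 to 0.81) did not meet the rule in either direction, and vimentin (Vim) stood at 19681, the highest value, in every SKOM library, against 19841 in every MEF library. Collagen Col6a1 was higher, with 4624, 4825, 5742, 4825 and 6568 in the SKOM libraries, against 2327, 2232, 2745, 2232 and 1787 in the MEF libraries and a ratio of 1.38 (1.26 to 2.16). The ectonucleotidase Nt5e (1.69, 1.43 to 2.11), also known as CD73, was the other member that was higher. With quantile normalization of the 10 libraries 18 members were lower and the list median was -0.95. The defining markers Col1a1, Thy1 and Pdgfrb were all present in SKOM libraries, and the summed value of 81 fibroblast markers, which hold this list and the next, was 109704 to 143176 there, against 279340 to 408799 in MEF libraries. These sums are not centred and include genes at the highest value, such as Bgn, Fbln2 and Col1a2, so their gap is not a fold change. Without genes at the highest value 31 members of the surface and matrix list remained, 17 of them lower, with a median of -1.19.

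Of 41 mesenchymal transcription factor genes 28 were in both tables, and 9 were lower and 2 higher, with a median of -0.72. The ratio was below 0 in all 5 pairs for 21 of the 28 (75%), against 31.6% of all shared genes. Snai2 (ENSMUSG00000022676, chromosome 16, 14705852 to 14709395), which encodes the repressor Slug, had 61, 53, 68, 49 and 47 in the SKOM libraries, against 403, 399, 396, 296 and 309 in the MEF libraries. The ratio was -2.31 (-2.53 to -2.18), and no SKOM library came near a MEF library. Its relative Snai1 (-2.13, -2.52 to -1.35), Twist2 (-1.66, -2.68 to -1.32) and Foxc1 (-1.58, -1.77 to -1.43) were lower as well. Zeb1 (-0.78, -0.94 to -0.62) and Zeb2 (-0.42, -0.63 to -0.33) were below 0 in every pair without reaching 2-fold, Twist1 stood at -0.26 (-0.59 to -0.01), and the limb mesenchyme factor Prrx1 stood at -0.15 (-0.35 to 0.46). The homeobox genes Mkx (1.14, 0.83 to 1.46) and Meox2 (1.10, 0.94 to 1.30) were higher, but both calls were lost without centring, and that of Meox2 also without the Dnmt1 and Tet1CD pairs. Without centring 0 members were higher and 14 lower. Osr1 (348, 341, 306, 537 and 205) and Foxc2 (288, 312, 282, 405 and 395) are listed for MEFs only, as are Alx4 and Tbx5. Meox1 (26, 25, 18, 17 and 6) and Osr2 (13, 12, 19, 40 and 7) are too. Meox1 reached 32 in none of these MEF libraries and Osr2 only with the p53 hairpin, so their missing SKOM listing shows no clear difference. Foxd1 (217, 282, 331, 468 and 249) is listed for SKOM cells only.

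All 29 genes of the TGF-beta list were in both tables. TGF-beta is secreted in a latent form that binding proteins hold in the matrix, and its receptors signal through Smad proteins. Of the 29, 11 were lower (37.9%, against 7.45% of all shared genes) and 0 higher, with a median of -0.73. In all 5 pairs 19 lay below 0, against 31.6% of all shared genes. The genes named for latent TGF-beta binding proteins (Ltbp) are grouped here by name and not by tested function. Ltbp1 (ENSMUSG00000001870, chromosome 17, 75005568 to 75391767) had 392, 356, 400, 310 and 414 in the SKOM libraries, against 3711, 3711, 4000, 3321 and 2862 in the MEF libraries. The groups were apart by a wide margin, with a ratio of -3.03 (-3.10 to -2.49). Ltbp2 (-2.93, -3.12 to -2.5) and Ltbp3 (-1.21, -1.51 to -0.79) were also lower, and Ltbp4 (0.86, 0.40 to 1.20) lay above 0 in every pair. Of the ligands, Tgfb3 (-2.10, -2.29 to -1.43) and Tgfb1 (-1.29, -2.12 to -0.93) were lower and Tgfb2 stood at 0.14 (-0.21 to 0.73). Of the receptors, the co-receptor Tgfbr3 (-2.91, -3.53 to -1.74) was lower, Tgfbr2 was at -0.75 (-0.99 to 0.17) and Tgfbr1 at 0.49 (0.35 to 0.80). The mediators Smad2 (-0.39, -0.58 to -0.32), Smad3 (-0.25, -0.65 to -0.06) and Smad4 (0.56, 0.26 to 0.63) did not meet the rule, while the inhibitor Smad7 (-1.02, -1.19 to -0.96) was just past the limit and lost its call with quantile normalization. Among classical targets, the matricellular gene Ctgf was lower, at -1.78 (-1.96 to -1.15). Tgfbi and Id3 met the rule for lower too, but each lost the call under 5 alternatives.

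The lowest median of any list with more than 2 shared members belonged to the smooth muscle contractile genes. Of 17 shared members 14 were lower and 0 higher, with a median of -1.80, and Mylk and Synpo2 are listed for MEFs only. Calponin 1 (Cnn1, ENSMUSG00000001349, chromosome 9, 22099281 to 22109630), an actin-binding protein of contractile cells, had 163, 146, 146, 68 and 142 in the SKOM libraries, against 1708, 1813, 1172, 893 and 1585 in the MEF libraries. Transgelin (Tagln, chromosome 9, 45929628 to 45936058) had 1479, 1341, 1408, 910 and 1492 in the SKOM libraries, against 9036, 10832, 7652, 7156 and 9981 in the MEF libraries. In both genes the SKOM library with the p53 hairpin was lowest, the groups did not overlap, and the ratios were -3.15 (-3.32 to -2.69) and -2.45 (-2.74 to -2.17). Leiomodin 1 (Lmod1, -3.03, -3.69 to -2.31), desmin (Des, -2.31, -3.59 to -2.01), the myosin light chain Myl9 (-2.12, -2.31 to -1.63), calponin 2 (Cnn2, -1.53, -1.60 to -1.26) and vinculin (Vcl, -1.90, -2.81 to -1.47) were lower too. Smooth muscle actin (Acta2, -0.71, -2.64 to 0.27) did not meet the rule. It stood at the highest value in 4 SKOM and 4 MEF libraries, with 5063 in the SKOM library with the p53 hairpin and 19827 in the MEF library labelled Tet1CD. The summed value of the list was 29626 to 52796 in SKOM and 129300 to 150388 in MEF libraries. This sum is not centred either and includes Acta2 at the highest value.

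The serum response factor is known to bind CArG boxes in promoters of contractile genes. A CArG box was found in 3 of the 16 smooth muscle promoter windows (18.8%), those of Cnn2, Myl9 and Vcl, against 1.53% of 27025 windows. The windows of Myl9 (chr2:156775214-156775513, plus strand) and Cnn2 (chr10:79988350-79988649, plus strand) are shown with the box in capitals, because both genes were lower and hold the match.
Myl9: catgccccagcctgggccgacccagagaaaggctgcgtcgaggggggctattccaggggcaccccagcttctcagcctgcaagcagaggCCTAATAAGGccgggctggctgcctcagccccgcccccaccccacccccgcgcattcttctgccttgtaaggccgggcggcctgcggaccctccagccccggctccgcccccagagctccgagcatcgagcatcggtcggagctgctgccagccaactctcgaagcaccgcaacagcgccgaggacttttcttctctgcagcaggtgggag
Cnn2: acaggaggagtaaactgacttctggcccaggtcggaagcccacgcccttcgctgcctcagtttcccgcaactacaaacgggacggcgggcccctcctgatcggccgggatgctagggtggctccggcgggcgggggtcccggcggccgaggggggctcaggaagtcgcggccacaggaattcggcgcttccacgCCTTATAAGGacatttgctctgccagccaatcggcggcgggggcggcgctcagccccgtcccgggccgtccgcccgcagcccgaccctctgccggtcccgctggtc
The pattern of the box reads the same on both strands and differs from the E-box hexamers. The Myl9 window also holds the hexamer CAGGTG near its end, left in lower case here. Srf itself, which encodes the factor, had a ratio of -0.58 (-0.84 to -0.47) and did not meet the rule.

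Receptors for matrix and the enzymes that cut it were mostly lower. Of 14 shared integrin genes 8 were lower and 1, Itgb4, higher, and Itga2 and Itga9 are listed for MEFs only. The fibronectin receptor subunit Itga5 had 499, 442, 513, 406 and 576 in the SKOM libraries, against 2598, 2440, 2497, 2440 and 2852 in the MEF libraries. Its groups were far apart and its ratio was -2.10 (-2.27 to -2.0). The collagen receptor subunit Itga11 (-2.83, -3.21 to -1.98), Itga7 (-1.73, -2.22 to -1.44) and Itga8 (-1.44, -1.64 to -0.06) were lower, the last of these not when pairs were ignored, and Itga6, the known partner of Itgb4, was at 0.21 (-0.25 to 0.28). Of 21 shared matrix proteases and inhibitors 13 were lower and 0 higher (median -1.16). Urokinase (Plau) had 63, 62, 70, 33 and 84 in the SKOM libraries, against 992, 986, 891, 766 and 1133 in the MEF libraries, and a ratio of -3.60 (-4.04 to -3.31). The metalloprotease Adam12 (-3.25, -4.03 to -2.81), the serpin Serpinf1 (-2.88, -3.55 to -2.68), tissue plasminogen activator (Plat, -2.79, -2.93 to -1.34), Adam19 (-2.65, -2.82 to -2.37) and the inhibitor Timp2 (-2.02, -2.21 to -1.84) were lower. Mmp2 (-0.74, -1.23 to -0.20) and Mmp14 (-0.91, -1.10 to -0.72) lay below 0 in every pair and missed the limit, and Mmp3, Mmp10, Mmp19 and Mmp23 are listed for MEFs only.

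Secreted signals of fibroblasts led the genes with the largest negative ratios. Cxcl12 (ENSMUSG00000061353, chromosome 6, 117168535 to 117175069), a chemokine of stromal cells, had 44, 30, 27, 29 and 33 in the SKOM libraries, against 1735, 1622, 1622, 1814 and 1450 in the MEF libraries. The ratio was -5.27 (-5.44 to -4.88), a 38.7-fold lower median on the value + 5 scale, and the pairs were close to one another. Smoc2 (chromosome 17, 14279506 to 14404790), a secreted calcium-binding protein, had 46, 32, 40, 26 and 53 in the SKOM libraries, against 910, 807, 949, 691 and 1010 in the MEF libraries, with a ratio of -4.13 (-4.19 to -3.85). The growth factor Fgf7 (-4.07, -4.16 to -3.62), pleiotrophin (Ptn, -3.46, -4.17 to -2.64), the guidance cue Sema3a (-3.41, -3.50 to -2.39) and the Dickkopf protein Dkk3 (-3.51, -3.75 to -2.99) were lower. The Notch-related and imprinted gene Dlk1 (-4.04, -4.21 to -2.73), the glycosyltransferase Gcnt4 (-3.66, -3.74 to -2.61), the sodium pump subunit Atp1b1 (-3.54, -3.75 to -3.15), the TGF-beta-anchoring protein Lrrc32 (-3.38, -3.46 to -2.71) and the chromatin protein Hmga2 (-3.42, -3.64 to -2.23) belonged to the same 15, with Plau and Postn. Hmga2 had 1528, 1528, 1493, 1291 and 1342 in the SKOM libraries, against 19827, 19827, 15100, 19827 and 7659 in the MEF libraries. The lectin receptor Clec4d (-3.63, -4.26 to -1.45), a gene of myeloid cells, was listed at 0 or 1 in 4 SKOM libraries and at 32 in the one with Tet1CD, against 60 to 118 in MEF libraries.

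Among chemokines and inflammatory factors 11 of 30 genes were shared, with 4 lower and 2 higher. The macrophage growth factor Csf1 had 403, 335, 465, 285 and 620 in the SKOM libraries, against 4389, 4247, 4671, 3983 and 7650 in the MEF libraries, without overlap, and a ratio of -3.33 (-3.48 to -3.04). The prostaglandin synthase Ptgs2 (-1.05, -1.49 to -0.74) and Serpinb2 (-1.01, -1.27 to -0.73) met the rule narrowly, and each call was lost under 4 alternatives. The long pentraxin Ptx3 (1.73, 0.53 to 2.82) and Cxcl16 (1.11, 0.93 to 1.92) were higher, Cxcl16 not without centring, and Ccl2 stood at -0.21 (-0.59 to 0.02). The interleukin 33 receptor Il1rl1, listed for MEFs only, had the highest median value of all genes in that class, with 1987, 1962, 969, 1935 and 471. The thymic stromal cytokine Tslp (32, 34, 30, 19 and 10) is listed for SKOM cells only.

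Genes of the interferon response gave a ratio that depended on the pair. Of 20 shared members 4 were lower and 1 higher, with a median of -0.29, and 6 more are listed for MEFs only and 3 for SKOM cells only. The list median was 0.28 in the Dnmt1 pair and 0.08 in the shDnmt1 pair, but -0.60 in the control, -0.32 in the shp53+shDnmt1 and -0.93 in the Tet1CD pair. Isg15, a ubiquitin-like effector listed for MEFs only, had 37, 6, 11, 24 and 157, with the library labelled Tet1CD highest and the one labelled Dnmt1 lowest. Ifi27 (-1.69, -2.0 to -0.62), the antiviral effector Ifit2 (-1.46, -1.80 to -1.23), and the RNA sensors Ddx58 (-1.35, -2.03 to -0.97) and Ifih1 (-1.12, -1.32 to -0.19) were lower, and the ubiquitin ligase Trim25 (1.10, 0.60 to 1.46) was higher. The Ifih1 and Trim25 calls were lost when single pairs were left out, and that of Ifi27 when pairs were ignored. Without the Tet1CD pair 3 members were higher and 3 lower, and when pairs were ignored 1 was higher and 2 lower. In SKOM cells Oas2 (16, 17, 24, 26 and 67) and Zbp1 (18, 28, 24, 18 and 61) had their highest value with Tet1CD. Of the 5 SKOM libraries only that one reached 32, the value needed for listing. Both genes are thus listed partly through it, and the contrast is not independent of the listing.

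**Figure D3:**
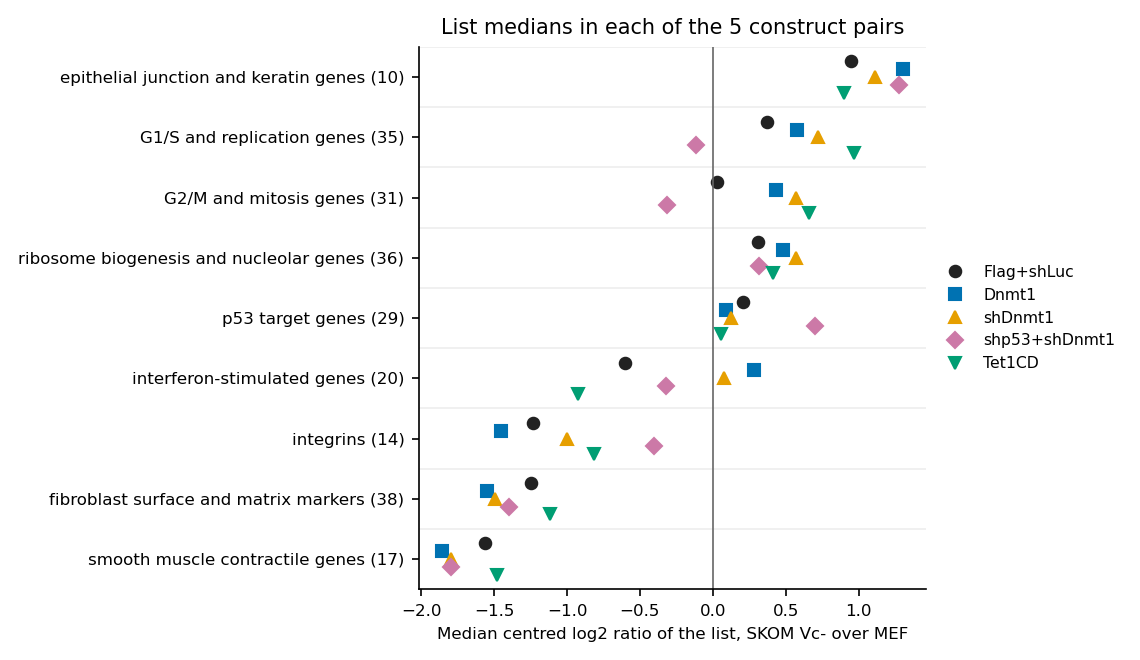
Median centred log2 ratio of SKOM over MEF cells (x axis) of 9 gene lists in each of the 5 construct pairs, 1 symbol per pair. Fibroblast, smooth muscle and epithelial lists keep 1 side of 0 in all 5 pairs, whereas G1/S and G2/M genes lie at -0.11 and -0.32 in the shp53+shDnmt1 pair and at up to 0.97 and 0.66 in the Tet1CD pair, and interferon-stimulated genes lie on both sides.

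Most cell cycle genes did not meet the rule. Of 35 shared G1/S and replication genes 3 were higher (8.57%, against 6.02% of all shared genes) and 0 lower, and the median was 0.58. The ratio was above 0 in all 5 pairs for 15 of the 35, against 30.9% of all shared genes. The uracil glycosylase Ung (1.84, 0.71 to 2.48), the replication initiation factor Mcm10 (1.33, 0.58 to 2.21) and the helicase subunit Mcm7 (1.23, 0.65 to 1.30) met the rule. The call of Mcm10 was lost when pairs were ignored and that of Mcm7 without centring and without the Dnmt1 and Tet1CD pairs. Mcm10 had 231, 255, 208, 303 and 200 in the SKOM libraries, against 102, 122, 97, 248 and 49 in the MEF libraries. The SKOM libraries were close together, and the MEF libraries ranged widely, from the one labelled Tet1CD to the one with the p53 hairpin, which overlapped with SKOM. The same held for the sliding clamp Pcna, with 851, 885, 781, 892 and 626 in the SKOM libraries, against 604, 564, 505, 1071 and 387 in the MEF libraries, and a ratio of 0.90 (0.04 to 0.97). The transcription factor E2f2 (53, 67, 51, 112 and 54) is listed for SKOM cells only. Of 31 G2/M and mitosis genes 2, the checkpoint kinase Bub1b (1.20, 0.42 to 1.91) and Nusap1 (1.12, 0.25 to 1.32), were higher and 0 lower, and the median was 0.41. Both lost the call without centring and when pairs were ignored, and Nusap1 also without any 1 of the Dnmt1, shDnmt1 and Tet1CD pairs.

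The list medians of the cell cycle differed between pairs. G1/S genes had a median ratio of 0.37 in the control pair, 0.58 in the Dnmt1 pair, 0.72 in the shDnmt1 pair, -0.11 in the shp53+shDnmt1 pair and 0.97 in the Tet1CD pair. For G2/M genes the medians were 0.03, 0.44, 0.57, -0.32 and 0.66 in the same order. Without the Dnmt1 and Tet1CD pairs the 2 medians were 0.37 and 0.03, with 2 and 1 genes higher, and without the shp53+shDnmt1 pair 5 and 4 genes were higher. The count of G1/S genes was 5 as well without the control pair, without the Dnmt1 pair and with quantile normalization. The topoisomerase Top2a shows the pattern, with 1309, 1512, 1334, 1999 and 1227 in the SKOM libraries, against 1550, 1370, 1087, 3715 and 704 in the MEF libraries. The highest MEF value was in the library with the p53 hairpin and the lowest in the one labelled Tet1CD, and the SKOM values differed less.

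Inhibitors and cyclins of G1 were mostly close to the median gene. Of 14 shared members 2 were higher and 0 lower, and the median was 0.11, or -0.17 without centring. The retinoblastoma gene Rb1 (ENSMUSG00000022105, chromosome 14, 73183673 to 73287707), which holds cells in G1, had 1392, 1247, 1392, 1123 and 1465 in the SKOM libraries, against 255, 229, 291, 200 and 385 in the MEF libraries. The groups were widely apart, with a ratio of 2.69 (2.20 to 2.76). The kinase gene Cdk6 (1.40, 1.09 to 2.16) was the other member that was higher. The inhibitors Cdkn1a (0.12, -0.10 to 1.20), Cdkn2a (0.05, -0.07 to 0.35) and Cdkn2b (-0.81, -1.55 to -0.23), and cyclins Ccnd1 (0.51, 0.06 to 0.86) and Ccnd2 (0.94, 0.65 to 1.85), did not meet the rule. Reads from the different products of the Cdkn2a locus are counted here under 1 gene.

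Of 29 shared p53 target genes 4 were higher and 2 lower, with a median of 0.14, or -0.14 without centring. These were 13.8% and 6.90% of the list, against 6.02% and 7.45% of all shared genes. The list median was 0.70 in the pair with the p53 hairpin and 0.05 to 0.21 in the other 4. The phosphatase Ptprv had 796, 796, 734, 551 and 849 in the SKOM libraries, against 318, 351, 343, 41 and 511 in the MEF libraries. The MEF library with the hairpin was far below the others, and the ratio was 1.44 (1.01 to 3.89). Perp, Tigar (1.18, 0.98 to 1.64) and the BH3-only gene Bbc3 (1.17, 1.07 to 1.24) were the other higher members, Dram1 (-1.13, -1.62 to -0.31) and Plk2 (-1.09, -1.40 to -0.97) were the lower ones, and Mdm2 (-0.21, -0.33 to 0.61) met neither limit. Tigar and Bbc3 lost the call without centring, Plk2 with quantile normalization, Dram1 without the Dnmt1 and Tet1CD pairs, and both of these when pairs were ignored.

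Ribosome biogenesis genes showed small and regular differences. All 36 were in both tables, 2 were higher (5.56%, against 6.02% of all shared genes) and 0 lower, and the median was 0.42. The ratio was above 0 in all 5 pairs for 27 of the 36 (75%), against 30.9% of all shared genes. The nucleolar protein Rrp1b had 454, 486, 489, 492 and 396 in the SKOM libraries, against 235, 221, 189, 297 and 120 in the MEF libraries, with no overlap and a ratio of 1.39 (1.02 to 1.96). The RNA polymerase I subunit Polr1b (1.03, 0.74 to 1.42) was just past the limit, and its call was lost under 6 alternatives. The telomerase and snoRNA protein Dkc1 (0.90, 0.50 to 1.04), the helicase Ddx21 (0.67, 0.42 to 0.99) and fibrillarin (Fbl, 0.65, 0.31 to 0.80) had ratios above 0 in every pair without meeting the rule. The hexamer CACGTG, an E-box known to be bound by Myc, was found in 8 of 32 promoter windows of the list (25%) and in 7.14% of 27025 windows. The hexamer reads the same on both strands. Without centring the list median was 0.14, so the direction held and its size depended on the centre.

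Of 26 nucleotide synthesis enzymes 3 were higher (11.5%, against 6.02% of all shared genes) and 0 lower (median 0.40). Shmt1 (1.37, 0.83 to 1.95), a folate enzyme, Ppat (1.31, 0.88 to 1.61), which commits purine synthesis, and the dUTPase Dut (1.18, 0.60 to 1.33) were higher, and the pyrimidine enzymes Cad (0.99, 0.71 to 1.08) and Umps (0.98, 0.82 to 1.18) had medians just under 1. The Dut call was lost without centring and without the Dnmt1 and Tet1CD pairs, and without the control pair 5 members were higher. The mitochondrial folate enzyme Mthfd2 lay at -0.77 (-1.13 to -0.54). Of 20 glycolytic genes 2 were higher and 2 lower, all of them transporters, and the list median was -0.02, or 0.22 with quantile normalization. The glucose transporter Slc2a3 had 229, 208, 198, 237 and 215 in the SKOM libraries, against 62, 73, 65, 53 and 48 in the MEF libraries, and its relative Slc2a1 had 147, 159, 148, 212 and 162 in the SKOM libraries, against 484, 508, 446, 592 and 447 in the MEF libraries. The first was higher in every SKOM library and the second lower in every one, with ratios of 2.08 (1.72 to 2.36) and -1.29 (-1.41 to -1.15). Likewise the lactate carrier Slc16a1 was higher (1.82, 1.28 to 2.11) and Slc16a3 lower (-1.73, -1.76 to -1.48), while enzymes such as Ldha (0.02, -0.03 to 0.21) and Pgk1 (-0.05, -0.09 to 0.17) stayed near the median gene.

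Of 18 shared hypoxia genes 5 were higher and 2 lower, or 3 and 5 without centring, and the median of 0.09 became -0.18. Without the shp53+shDnmt1 or the Tet1CD pair 4 were lower. Epas1, which encodes HIF-2alpha, had 470, 435, 407, 381 and 387 in the SKOM libraries, against 66, 61, 75, 49 and 159 in the MEF libraries. Its ratio was 3.0 (1.54 to 3.14), and that of Hif1a was -0.92 (-1.24 to -0.91), below 0 in every pair with a median short of 2-fold. Mxi1 (2.15, 2.01 to 2.40), an antagonist of Myc, the kinase Pdk1 (1.54, 0.96 to 2.16), the hydroxylase Egln3 (1.20, 0.82 to 1.36) and the demethylase Kdm3a (1.04, 0.82 to 1.22) were higher, the collagen hydroxylase P4ha1 (-1.43, -1.60 to -1.40) was lower with Slc2a1, and adrenomedullin (Adm, 410, 392, 306, 436 and 250) is listed for MEFs only. Egln3 lost the call without centring. Kdm3a lost it under 6 alternatives, among them no centring, no pairs and leaving out the control, the shp53+shDnmt1 or the Tet1CD pair. None of 37 respiratory chain and ATP synthase genes met the rule in either direction, with a median of -0.07, or 0.02 with quantile normalization. Of 22 cholesterol genes 1, the sterol isomerase Ebp (1.48, 1.22 to 1.63), was higher, and the median of 0.25 became -0.03 without centring.

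Among genes of DNA methylation 4 of 16 were higher and 0 lower, with a median of 0.49. Dnmt3a (ENSMUSG00000020661, chromosome 12, 3806007 to 3838814), a methyltransferase that sets new marks, had 279, 299, 317, 377 and 258 in the SKOM libraries, against 174, 166, 157, 142 and 105 in the MEF libraries. Tet2 (chromosome 3, 133463679 to 133544390), which oxidises methylcytosine, had 207, 212, 304, 294 and 227 in the SKOM libraries, against 115, 133, 129, 78 and 89 in the MEF libraries. Neither pair of groups overlapped, and the ratios were 1.26 (0.94 to 1.68) and 1.48 (0.92 to 2.15). The glycosylase Mbd4 (1.17, 0.71 to 1.27) and Dnmt1, with the limits given above, were the other higher members. Tet3 (0.90, 0.79 to 1.69), the glycosylase Tdg (0.64, 0.33 to 0.92) and the Dnmt1 cofactor Uhrf1 (0.58, 0.10 to 1.33) lay above 0 in every pair and did not meet the rule. Of 29 chromatin genes known as barriers or aids to reprogramming 2 were higher and 0 lower (median 0.49). These were the Polycomb partner Jarid2 (1.19, 1.03 to 1.55) and Kdm3a, with the limits given above for Kdm3a. The H3K9 methyltransferase gene Setdb1 (0.72, 0.51 to 0.95) and the chromatin assembly subunit Chaf1a (0.62, 0.31 to 1.33) were above 0 in every pair. Without centring, 1 methylation gene was higher and 2 were lower, with a list median of 0.21, and 0 chromatin genes were higher. In the control pair alone 1 methylation gene was past 2-fold higher.

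Positional genes of the embryonic trunk and limb were partly lower. Of 39 Hox genes 19 were shared, of which 5 were lower and 0 higher (median -0.42), and 10 are listed for MEFs only and 2 for SKOM cells only. The number of lower genes was 2 with a pseudocount of 20, 3 without the shDnmt1 pair, 8 without the Dnmt1 and Tet1CD pairs and 9 without centring. Hoxb9 had 108, 90, 106, 80 and 115 in the SKOM libraries, against 366, 320, 413, 373 and 358 in the MEF libraries, without overlap and with a ratio of -1.51 (-1.85 to -1.31). Hoxb8 (-1.34, -1.86 to -0.93), Hoxa11 (-1.22, -1.63 to -0.97), Hoxa5 (-1.06, -1.37 to -0.62) and Hoxc10 (-1.06, -1.20 to -0.73) were lower, whereas Hoxa9 (0.03, -0.06 to 0.75) and Hoxb4 (0.01, -0.44 to 0.14) were at the median gene. The Hoxa5 and Hoxc10 calls were each lost when 1 of 3 single pairs was left out. Hoxa13 (73, 78, 70, 73 and 54) and Hoxd10 (81, 74, 49, 64 and 53) are among those listed for MEFs only, and Hoxd4 (44, 41, 60, 74 and 56) and Hoxd3 (29, 27, 28, 38 and 36) for SKOM cells only. Of 18 shared immediate early genes 0 were higher and 4 lower, or 8 lower without centring. The transcription factor gene Fos had 69, 53, 60, 24 and 86 in the SKOM libraries, against 365, 379, 598, 176 and 304 in the MEF libraries, and a ratio of -2.34 (-2.94 to -1.48). Klf6 (-1.52, -1.68 to -1.30), the phosphatase Dusp6 (-1.27, -1.43 to -1.14) and Cyr61 (-1.19, -1.33 to -0.73) were lower as well, and Fosb (447, 417, 511, 132 and 380) and Atf3 (30, 21, 33, 21 and 18) are listed for MEFs only.

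Markers of cell types other than fibroblasts were read for all libraries. The macrophage list had 4 of 20 markers in the SKOM table and 10 in the MEF table, and its summed value was 302 to 727 in SKOM and 140 to 1667 in MEF libraries. Of its defining markers, Ptprc had 9, 12, 13, 0 and 43 in the SKOM libraries, against 53, 92, 87, 17 and 110 in the MEF libraries, Csf1r (7, 45, 39, 4 and 75) is listed for MEFs only and Adgre1 in neither table. Lysozyme (Lyz2), listed for MEFs only, had 129, 666, 694, 53 and 912, so that the MEF control and the MEF library with the p53 hairpin held less of it than the other 3. Laptm5 (2.74, 2.22 to 4.81) and Itgam (1.69, 1.08 to 2.05) were higher in SKOM cells and Ptprc (-1.84, -2.25 to -0.98) was lower, but not when pairs were ignored. The part of these markers in the interferon, chemokine and other results was not tested. Of 14 endothelial markers 2 were in both tables and both were lower, the receptor Flt1 (-2.06, -2.23 to -2.02) and Emcn (-1.55, -1.57 to -1.19). Kdr (139, 136, 86, 127 and 32) is listed for MEFs only, Tek (297, 317, 316, 309 and 331) for SKOM cells only, and the defining markers Pecam1 and Cdh5 in neither table. Acta1, the skeletal muscle actin and the 1 shared member of 14 skeletal muscle markers, was lower (-2.81, -2.93 to -2.39).

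Of 6 shared neural and glial genes 3 were higher and 1 lower. Stmn2, a tubulin-binding protein of neurons, had 3024, 3329, 3135, 3525 and 2879 in the SKOM libraries, against 468, 404, 592, 394 and 523 in the MEF libraries. Its groups were far apart, with a ratio of 2.95 (2.67 to 3.44). The neuronal tubulin Tubb3 (2.31, 1.85 to 2.74) and the transcription factor Sox11 (1.81, 1.69 to 2.26) were higher, Map2 (-1.45, -1.5 to -0.97) was lower, and nestin (Nes, -0.68, -0.87 to -0.63) and Ncam1 (-0.58, -0.95 to -0.13) lay below 0 in every pair without reaching 2-fold.

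**Figure D4:**
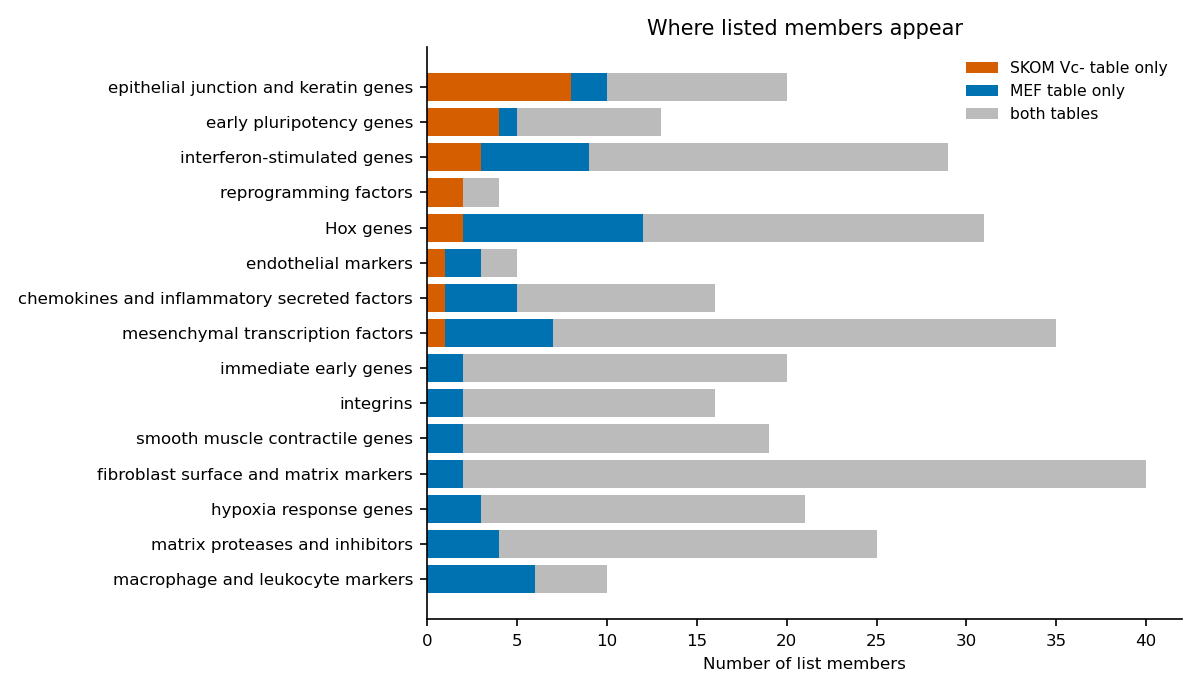
Number of members of 15 gene lists (x axis) that are listed in the SKOM table only, in the MEF table only or in both tables. Epithelial genes have 8 members listed for SKOM cells only and 2 for MEFs only, and the Hox, macrophage and mesenchymal transcription factor lists have 10, 6 and 6 members listed for MEFs only.

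Genes listed in 1 table only were mostly low, with a median value of 46 for the 481 listed for SKOM cells only and of 36 for the 910 listed for MEFs only. In each class 78 genes had a median of at least 100. Beside Pou5f1 and Sox2, the highest of the first class were Podxl (chromosome 6, 31519488 to 31563981), a sialomucin of pluripotent and epithelial cells, with 2137, 2446, 3310, 3123 and 2868, the aspartate acetyltransferase Nat8l with 1528, 1509, 1754, 1592 and 1931, and the long noncoding RNA Miat with 1011, 1143, 1222, 1086 and 1156. Tmem229b, Plekhh1, the aldehyde dehydrogenase Aldh3a1, the doublecortin-like kinase Dclk2, the orphan receptor Gpr50, L1td1 and the stem cell antigen Psca followed. Gpr50 had 606, 726, 766, 567 and 292, with the lowest value in the Tet1CD library. Beside Il1rl1 and Lyz2, the highest of the second class were the sphingosine receptor S1pr3 (592, 503, 655, 519 and 406), Fosb, P-cadherin (Cdh3, 490, 506, 363, 414 and 340), Adm, the matrilin Matn2 (409, 350, 379, 491 and 263) and Osr1. Nptx1, Foxc2, Pdgfra and Myom1 completed the 12. P-cadherin, an epithelial cadherin, is thus listed for MEFs and not for SKOM cells, the reverse of E-cadherin.

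Single pairs departed from the others at some genes. Over the 9471 genes whose mean value reached 50, the ratio of a pair lay at least 2-fold outside the range of the other 4 for 8 genes in the control pair (0.0845%), 7 in the Dnmt1 pair (0.0739%) and 2 in the shDnmt1 pair (0.0211%). The same count was 65 in the shp53+shDnmt1 pair (0.686%) and 60 in the Tet1CD pair (0.634%). In 60 of the 65 and 45 of the 60 it was the MEF library, and not the SKOM library, that lay farther off. Distance was taken from the median of the other 4 libraries of the setting. Over all 9471 genes the median log2 distance was 0.25 for MEF and 0.16 for SKOM in the shp53+shDnmt1 pair. In the Tet1CD pair it was 0.19 and 0.15, so the MEF library had the larger median distance in both. The imprinted noncoding RNA H19 (chromosome 7, 142575529 to 142578143) had 1086, 933, 783, 1121 and 762 in the SKOM libraries, against 9045, 9045, 7163, 9988 and 1439 in the MEF libraries. The MEF library labelled Tet1CD was far below the other MEF libraries, so the ratio was -0.63 in that pair and -3.0 to -2.78 in the others. The Hedgehog factor Gli2 (0.52, 0.44 to 2.5) was low in the same MEF library, with 39 against 145 to 194. Lumican (Lum) and the kinase Stk26 departed on the SKOM side, with values of 1 and 0 in the SKOM Tet1CD library, against 37 to 58 and 29 to 64 in the other SKOM libraries. Wdr31 (0.05, -2.58 to 1.05) was highest in the MEF library labelled Tet1CD, at 453.

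In the pair with the p53 hairpin, Zbed6, Pclo and Rims1 had MEF values of 0, 2 and 1 with that construct, against 95 to 191, 64 to 93 and 37 to 62 in the other MEF libraries. Zbed6 lies within another gene, Zc3h11a, and reads of overlapping genes cannot be told apart here, so its value is uncertain, and the other entry with the symbol Zbed6 had 343 in the same MEF library. The Wnt inhibitor Sfrp2 had 126, 102, 84, 81 and 76 in the SKOM libraries, against 113, 114, 107, 421 and 57 in the MEF libraries, with its highest value in the MEF library with the p53 hairpin. The mitochondrial tRNA synthetase Lars2 varied in both settings, with 1381, 532, 212, 213 and 212 in the SKOM libraries, against 400, 366, 281, 2049 and 648 in the MEF libraries. In the control pair Hgf was listed at 0 in SKOM cells and Tom1 at 0 in MEFs, and in the Dnmt1 pair Ugt8a and Tenm1 had MEF values of 1 and 0. Each of these values rests on 1 library.

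**Figure D5:**
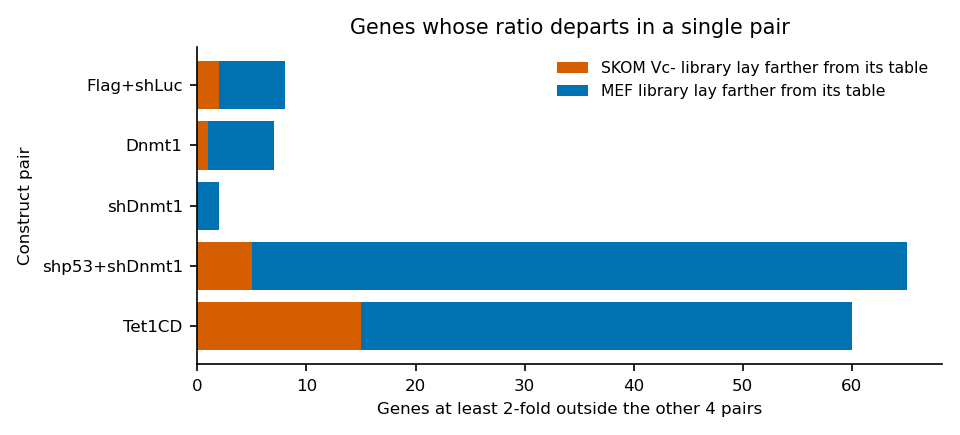
Number of genes (x axis) whose ratio in a pair lay at least 2-fold outside the other 4 pairs, of 9471 genes. The split is by which library of the pair, SKOM or MEF, lay farther from the median of the other 4 of its setting. The shp53+shDnmt1 and Tet1CD pairs have 65 and 60 such genes, most of them on the MEF side, and the other 3 pairs have 2 to 8.

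SKOM cells with vitamin C can be set against the same 5 MEF libraries, and since the MEF values are shared, the 2 sets of ratios are given side by side only. With vitamin C, 724 of 10777 shared genes were higher (6.72%) and 1163 lower (10.8%). The list medians without and with vitamin C were 1.05 and 0.98 for epithelial genes, -1.42 and -1.82 for fibroblast genes, -1.80 and -2.28 for smooth muscle genes and -0.73 and -1.23 for the TGF-beta list. For G1/S genes they were 0.58 and 0.77, for ribosome biogenesis genes 0.42 and 0.40, and for interferon-stimulated genes -0.29 and 0.52, the last list with 20 shared members without vitamin C and 26 with it. The fibroblast list had 38 shared members without vitamin C and 39 with it, and the smooth muscle list 17 and 19. The medians of these lists are therefore not over the same genes. Itgb4 stood at 6.75 without and 7.12 with vitamin C, Dsp at 3.61 and 4.05, Snai2 at -2.31 and -3.19, and Tagln at -2.45 and -3.12. The glucose transporter Slc2a1 stood at -1.29 and -0.42 and the lactate carrier Slc16a3 at -1.73 and -0.29. Whether these differ between media was not tested here.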

How the data were processed

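RNA sequencing values of 21 libraries came in 3 tables of 7 libraries. The deposited values are a score in whole numbers, which the authors had already normalized between the libraries of each table, so no count test was used. Bowtie, RSEM and mm10 are named in the submitters' processing notes. For the normalization, the roles of the tools and the strand setting nothing is given in the sources used here. Sequencing depth is unknown, so no interval from counts is given.

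Python 3.11.15 with numpy 2.4.6, pandas 2.3.3 and matplotlib 3.10.9 was used. The table of SKOM cells without vitamin C and that of MEFs were joined on the gene identifier. In each of 5 construct pairs the log2 ratio of SKOM over MEF was taken with a pseudocount of 5 and centred on its median. The tables were normalized separately and each construct has 1 library a setting, so no test was run. The steps were tested on simulated data. Members and gene lists (784 genes in 31 lists) were chosen with earlier results of these data known. Genes named were the targeted genes and factors, the 15 with the largest ratio in each direction (without predicted genes and genes at the highest value), the leading members of each list (up to 4, and up to 2 in the other direction), the 3 most departing genes a direction and pair, and up to 6 members a list in 1 table only. Further list members, and the highest genes of 1 table only, were named after their values were seen. Alternatives were pseudocounts of 1 and 20, a mean of at least 50, no centring, quantile normalization of the 10 libraries together, no pairs (all SKOM values of a gene above or below all MEF values, each library centred on its own median), 1.5-fold and 4-fold limits, leaving out genes at the highest value, and leaving out each pair. Leaving out the Dnmt1 and Tet1CD pairs together and the control pair alone were added after seeing the data. Promoter windows came from RefSeq (GRCm38.p6). The labels do not say whether libraries came from separate cultures. Some genes that the rule selects are not reported here.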

Additional observations from a re-analysis of the deposited data

Results flagged for a closer look

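The ratio of 1 pair stood apart from the other 4, by a gap of over 0.71 of the whole range over pairs, for 14 of 131 named genes and for 1 of 26 gene lists. Of groups of 5 values drawn from the same normal distribution, about 1 in 20 would be set apart in this way. The pairs hold different constructs, with a hairpin against Trp53 itself among them, so that share is not a benchmark for these counts. Each such ratio rests on 1 SKOM and 1 MEF library. The pair was Tet1CD for 9 of the genes, shp53+shDnmt1 for 4, shDnmt1 for 1 and the control or Dnmt1 pair for 0.

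In the shp53+shDnmt1 pair the list median of p53 target genes was 0.70, against 0.05 to 0.21 in the other pairs. In the same pair the ratio of Trp53 was 1.56, against 0.02 to 0.07, that of its target Ptprv was 3.89, against 1.01 to 1.58, that of the membrane protease St14 was 3.35, against 1.69 to 2.07, and that of the matrix gene Fbln2 was -2.11, against -3.85 to -3.47. In the Tet1CD pair several genes that were lower in SKOM cells were less so. The ratio there was -2.73 for Dlk1, against -4.21 to -3.79 in the other pairs, -2.61 for Gcnt4, against -3.74 to -3.49, and -1.83 for Spp1, against -3.63 to -3.21. It was -2.49 for Ltbp1, against -3.10 to -2.95, -1.34 for Plat, against -2.93 to -2.51, and -1.48 for Slc16a3, against -1.76 to -1.71. Desmin (Des) had the opposite pattern, with -3.59 in the Tet1CD pair, against -2.36 to -2.01. Il1rn and Col6a1, both higher in SKOM cells, had a larger ratio in that pair, with 6.08 for Il1rn, against 3.92 to 4.23, and 2.16 for Col6a1, against 1.26 to 1.41. The glutathione transferase Gsta4 had 2.73 in the shDnmt1 pair, against 3.63 to 3.87. The sorted values of the MEF library labelled Tet1CD differed from those of the MEF control at 35.8% of ranks, and the part of this in the ratios of its pair was not tested.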

How the results depend on the processing

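Against 617 higher and 763 lower genes, no centring gave 376 and 1258, a 1.5-fold limit gave 1451 and 1582, and a 4-fold limit gave 129 and 158. The other settings stayed within 1.5 times of both counts, at 503 to 665 higher and 684 to 789 lower genes. A pseudocount of 20 gave 503 and 684, and one of 1 gave 663 and 789. Leaving out each pair in turn gave 615 to 665 higher and 748 to 773 lower genes. Over the 31 list medians, 39 values under other settings moved by more than the spread between pairs and 364 did not, and over the named genes 110 moved and 1829 did not. No ratio that met the rule changed sign under these settings. Of 134 named genes that met the rule, 33 lost the call under at least 1 alternative. The pairs used throughout are libraries with the same construct. By replicate number, no paired analysis was possible because each construct has 1 library in each setting. Depth is unknown, values near 0 are held back by the pseudocount, genes at the highest value have limited ratios, and a gene absent from a table has no value there. The factors, medium, time and table changed together.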
